A study of Mus musculus with 6 samples.

Results

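Transcripts of 10 genes of the muscle atrophy program were followed across 3 RNA-seq libraries of C2C12 cells, a mouse myoblast line that carries the strain label C3H. The genes were taken by symbol from the deposited expression tables and comprise 3 FoxO transcription factors (Foxo1, Foxo3 and Foxo4) and 7 ubiquitin ligases (Fbxo32, Trim63, Cblb, Fbxo30, Fbxo31, Traf6 and Nedd4). All 10 were found, each as 1 row among the 22989 rows of every table. The libraries were starved myoblasts with the siRNA siNS, kept in Hank's balanced salt solution for 4 h with HEPES and antibiotics (the starved library), fed myoblasts with the siRNA siFoxk1 (the Foxk1 knockdown library), and fed myoblasts with siNS (the control library). Fed cells, labelled non-starved, grew in DMEM with 10% fetal bovine serum, and all 3 libraries thus carry an siRNA, though the labels do not say what siNS targets. The study set starvation and loss of Foxk1 each against the fed state, and 3 ChIP samples of the same series were not used here.

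FoxO proteins are forkhead transcription factors that insulin and growth factors hold in check. Akt phosphorylates them when PI3K signalling is active, they then bind 14-3-3 proteins and leave the nucleus, and they return to it when growth factors or nutrients fall. In skeletal muscle they are known to switch on genes of protein breakdown, above all the ligase genes Fbxo32 (atrogin-1, also MAFbx) and Trim63 (MuRF1), and genes of autophagy. Foxk1 belongs to another branch of the forkhead family and is known from muscle progenitor cells, where it works with Sin3 corepressor complexes. The libraries measure messenger RNA, so the phosphorylation and location of FoxO proteins were not analysed here.

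Levels are given as FPKM, fragments per kilobase of transcript scaled to the number of mapped fragments, with the lower and upper limits of the authors' 95% interval in brackets. FPKM is scaled by transcript length, so levels of different genes can be set side by side. Read depth is unknown. Each condition had 1 library, so there is no spread between replicates, no test and no p-value, and every difference below is between libraries and not shown to be between conditions. The size of a difference is given in 2 ways. One is the ratio of the FPKM values, with a range from the lower limit of the first library over the upper limit of the second to the upper limit over the lower. The other is the log2 fold change of FPKM plus 1, which understates differences of low genes. Intervals that do not overlap are called apart. Without Trim63, the half-width of the interval lay between 15.6% and 27.1% of the value for these genes. In such bulk RNA, fewer cells that express a gene and less RNA per cell cannot be told apart.

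The target of the knockdown was checked first. Foxk1 stood at 16.1 FPKM (13.3 to 18.9) in the starved, 5.15 FPKM (4.29 to 6.02) in the Foxk1 knockdown and 9.09 FPKM (7.76 to 10.4) in the control library. The knockdown library thus held 0.567 times the control level of the target, so the depletion seen in RNA was partial. Of the myoblast markers, Des, Cdh15 and Myf5 stood at 16.8 FPKM or more in all 3 libraries, while Myod1 was at 10.7 FPKM in the starved, 95.8 FPKM in the knockdown and 70.1 FPKM in the control library. Of 14 markers of fat, blood, endothelial and bone cells, 2 reached 1 FPKM in any library (Cebpa and Cd68), and Plin1, Cd3e and Ibsp were listed at 0 in all 3. The 14 markers summed to 18.2, 12.4 and 10.1 FPKM in the starved, knockdown and control libraries, and 5 markers of differentiated muscle (Myog, Ckm, Acta1, Myh3 and Tnnt1) to 17.9, 132 and 31.5 FPKM.

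**Figure D1:**
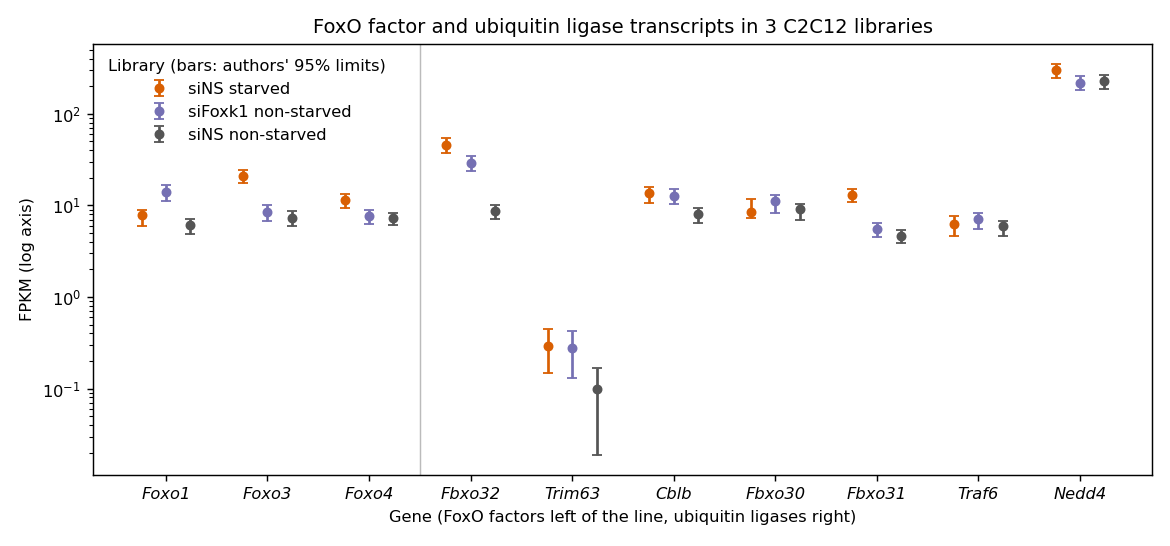
FPKM (log axis) of the 10 genes in the siNS starved, siFoxk1 non-starved and siNS non-starved libraries, with the authors' 95% limits as bars. Fbxo32 has its highest point, 45.8 FPKM, in the starved library, Foxo3 and Fbxo31 stand out in the starved library alone, Foxo1 in the knockdown library alone, and Trim63 stays under 1 FPKM throughout.

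In the control library 8 of the 10 genes lay close together. Nedd4 was far above the rest at 225 FPKM, higher than 96.5% of the rows at 1 FPKM or more, and Trim63 far below at 0.0979 FPKM. From Fbxo30 (9.13 FPKM) through Fbxo32, Cblb, Foxo3, Foxo4, Foxo1 and Traf6 to Fbxo31 (4.65 FPKM), each gene's interval overlapped that of the next one in order. The ends of this order were apart, with limits of 6.88 to 10.4 FPKM for Fbxo30 and 3.91 to 5.39 FPKM for Fbxo31. In the other libraries this middle group spread out. Fbxo32 moved to the second place, at 45.8 FPKM in the starved and 29.0 FPKM in the knockdown library, with its interval apart from those of its neighbours on both sides. Behind it came Foxo3 in the starved library (20.7 FPKM, apart from Cblb, the next gene) and Foxo1 in the knockdown library (14.1 FPKM, overlapping with Cblb).

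The FoxO genes differed from each other in which library they were high. Foxo1, best known for its part in insulin-regulated metabolism, stood at 7.78 FPKM (5.92 to 8.96) in the starved, 14.1 FPKM (11.1 to 16.6) in the knockdown and 6.08 FPKM (4.85 to 7.10) in the control library. Only the knockdown library was high, and its interval was apart from both others. The knockdown library held 2.32 times the control level (range 1.56 to 3.43). For the starved library the ratio to the control was 1.28 (0.834 to 1.85), and the direct ratio of the starved to the knockdown library was 0.552 (0.357 to 0.807).

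Foxo3, the FoxO member most often tied to muscle wasting in mice, showed the opposite arrangement. It stood at 20.7 FPKM (17.4 to 24.1) in the starved, 8.44 FPKM (6.78 to 10.1) in the knockdown and 7.31 FPKM (5.96 to 8.66) in the control library. The starved library was high and apart from both others, whose intervals overlapped. Its ratio to the control was 2.84 (2.01 to 4.04) and its ratio to the knockdown library 2.45 (1.72 to 3.55), whereas the knockdown library held 1.16 times the control level (0.784 to 1.69).

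Foxo4, likewise an Akt substrate, followed the arrangement of Foxo3 with smaller differences. Its values were 11.3 FPKM (9.46 to 13.2), 7.63 FPKM (6.30 to 8.96) and 7.22 FPKM (6.08 to 8.34) in the starved, knockdown and control libraries. The starved library was again apart from both others, at 1.57 times the control (1.13 to 2.16) and 1.48 times the knockdown library (1.06 to 2.09). The ratio of knockdown to control was 1.06 (0.755 to 1.47). Foxo6, the remaining FoxO gene of mice and not among the 10, was at 6.22 FPKM (5.12 to 7.32), 3.09 FPKM (2.46 to 3.72) and 2.27 FPKM (1.80 to 2.74), with the starved library apart from both others as well.

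The most abundant FoxO transcript was another one in each library with a treatment. Foxo3 made up 52.1% of the summed Foxo1, Foxo3 and Foxo4 FPKM in the starved, 28.0% in the knockdown and 35.5% in the control library. The share of Foxo1 was 19.5%, 46.7% and 29.5% in the same libraries. Within a library, the level of Foxo3 was 2.66 times that of Foxo1 in the starved (1.94 to 4.06), 0.600 times in the knockdown (0.408 to 0.910) and 1.20 times in the control library (0.839 to 1.79), so only the control library left their order unresolved. The sum itself was 39.8 FPKM in the starved (32.8 to 46.2 with the limits summed), 30.2 FPKM in the knockdown (24.2 to 35.7) and 20.6 FPKM in the control library (16.9 to 24.1). These ranges left the starved and knockdown sums overlapping and both above the control, the knockdown sum narrowly. With Foxo6 added, the knockdown sum of 33.3 FPKM (26.6 to 39.4) overlapped the control sum of 22.9 FPKM (18.7 to 26.8). The starved sum was 1.93 times and the knockdown sum 1.46 times the control.

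**Figure D2:**
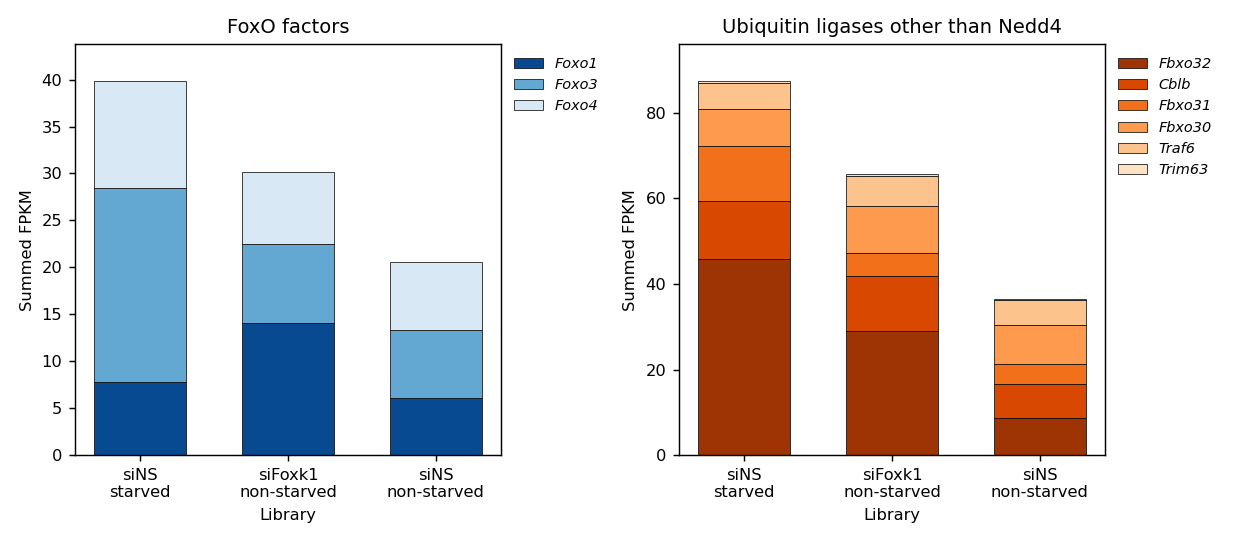
Summed FPKM of the 3 FoxO genes (left) and of the 6 ligase genes other than Nedd4 (right) in the siNS starved, siFoxk1 non-starved and siNS non-starved libraries, stacked by gene from 0. The FoxO sums are 39.8, 30.2 and 20.6 FPKM, with Foxo3 the widest band in the starved and Foxo1 in the knockdown library, and Fbxo32 is the widest ligase band in both.

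The sequences around the starts of Foxo1 and Foxo3 are shown because these 2 genes were high in different libraries. They run from 250 bases before to 50 bases after the annotated start, 5′ to 3′ on the gene's strand, and come from RefSeq on build GRCm38.p6, which is not the build mm9 listed for the RNA data. The Foxo1 window is chr3:52268087-52268386 on the plus strand and the Foxo3 window chr10:42276646-42276945 on the minus strand. No capitals appear because neither holds the forkhead motif GTAAACA or the insulin response element CAAAACA on either strand.
Foxo1: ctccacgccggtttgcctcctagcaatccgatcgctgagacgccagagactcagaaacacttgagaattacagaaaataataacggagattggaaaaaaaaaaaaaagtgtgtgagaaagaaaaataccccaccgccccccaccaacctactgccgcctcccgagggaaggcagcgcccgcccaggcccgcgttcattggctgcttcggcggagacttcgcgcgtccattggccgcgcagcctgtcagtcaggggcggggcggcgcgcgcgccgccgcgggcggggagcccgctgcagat
Foxo3: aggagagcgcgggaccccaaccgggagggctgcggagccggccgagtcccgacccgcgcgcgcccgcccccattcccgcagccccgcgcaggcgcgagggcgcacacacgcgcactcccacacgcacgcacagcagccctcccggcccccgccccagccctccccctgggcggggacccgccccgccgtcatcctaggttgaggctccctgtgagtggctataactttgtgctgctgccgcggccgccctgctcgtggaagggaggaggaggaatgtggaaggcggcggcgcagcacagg
Both windows are rich in G and C, with 61.3% in Foxo1 and 75.0% in Foxo3, against a median of 52.7% over 32851 promoter windows of the table. The absence of a match says only that these letters are not in this window.

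Among the ligases above the minimum of 1 FPKM, Fbxo32 had the highest fold change against the control in both treated libraries. It encodes atrogin-1, the F-box protein that gives an SCF ubiquitin ligase its substrates in muscle. Fbxo32 stood at 45.8 FPKM (37.1 to 54.0) in the starved, 29.0 FPKM (23.7 to 34.3) in the knockdown and 8.59 FPKM (7.10 to 9.97) in the control library. All 3 intervals were apart, so the libraries could be ordered. The ratio to the control was 5.33 in the starved (3.72 to 7.61) and 3.38 in the knockdown library (2.37 to 4.83), and the starved library held 1.58 times the knockdown level (1.08 to 2.28). Its log2 fold change was above that of 99.7% of 11396 rows in the starved and of 99.3% of 11357 rows in the knockdown comparison. Of the 6 ligase genes other than Nedd4, Fbxo32 held 52.5% of the summed FPKM in the starved, 44.2% in the knockdown and 23.6% in the control library.

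Trim63 encodes MuRF1, a RING-finger ligase of the sarcomere whose gene is usually induced together with Fbxo32 in wasting muscle. Here it was barely detected, at 0.292 FPKM (0.149 to 0.446) in the starved, 0.279 FPKM (0.130 to 0.428) in the knockdown and 0.0979 FPKM (0.0188 to 0.169) in the control library. The intervals of the starved and knockdown libraries overlapped each other and that of the control. The ratios to the control, 2.98 and 2.85, had ranges from 0.881 to 23.8 and from 0.771 to 22.8, so a difference was not resolved at this level. Trim63 was under the minimum of 1 FPKM and is left out of the counts below. Its promoter is shown because it is the only one of 9 promoter windows found for 8 of the genes that held the forkhead motif. The window is chr4:134314870-134315169 on the plus strand of GRCm38.p6, and capitals mark the motif, read here as its reverse complement TGTTTAC and starting 194 bases before the gene's start.
Trim63: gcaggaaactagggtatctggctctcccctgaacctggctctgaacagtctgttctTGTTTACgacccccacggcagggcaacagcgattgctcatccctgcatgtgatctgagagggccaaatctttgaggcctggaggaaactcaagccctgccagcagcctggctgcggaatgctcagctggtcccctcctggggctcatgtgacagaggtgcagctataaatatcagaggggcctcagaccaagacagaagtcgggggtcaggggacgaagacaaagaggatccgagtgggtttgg
Over all 32851 windows 3.65% held this motif on either strand. A window of the Traf6 gene held the insulin response element, which 6.28% of all windows held, and the windows of Foxo1, Foxo3, Cblb, Fbxo30, Fbxo31 and Nedd4 held neither. No window was found for Fbxo32 or Foxo4, so neither motif was looked for there.

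Cblb encodes Cbl-b, a RING ligase known to act on the insulin receptor substrate IRS-1 in unloaded muscle of mice. It stood at 13.5 FPKM (10.7 to 16.0) in the starved, 12.8 FPKM (10.3 to 15.0) in the knockdown and 7.98 FPKM (6.49 to 9.44) in the control library. Both treated libraries were apart from the control, at 1.69 times (1.14 to 2.47) and 1.60 times its level (1.09 to 2.31). They overlapped each other, with a starved to knockdown ratio of 1.06 (0.715 to 1.56), which leaves room for a difference in either direction.

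Fbxo31, an F-box protein gene known for directing cyclin D1 to breakdown, resembled Foxo3. Its values were 12.9 FPKM (10.9 to 15.0), 5.46 FPKM (4.53 to 6.39) and 4.65 FPKM (3.91 to 5.39) in the starved, knockdown and control libraries. The starved library was apart from both others, at 2.78 times the control (2.01 to 3.83) and 2.37 times the knockdown library (1.70 to 3.32). The knockdown library overlapped the control at a ratio of 1.17 (0.839 to 1.63).

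Of the ligase genes above the minimum of 1 FPKM, 3 had no pair of libraries apart (Fbxo30, Traf6 and Nedd4). Fbxo30, which encodes the FoxO-dependent ligase MUSA1 of mouse muscle, was at 8.51 FPKM (7.26 to 11.9), 11.0 FPKM (8.20 to 13.1) and 9.13 FPKM (6.88 to 10.4) in the starved, knockdown and control libraries. Its ratio to the control was 0.933 in the starved (0.700 to 1.73) and 1.21 in the knockdown library (0.790 to 1.90). Traf6, a RING ligase that makes K63-linked chains in cytokine signalling, was at 6.23 FPKM (4.68 to 7.60), 7.03 FPKM (5.46 to 8.28) and 5.93 FPKM (4.65 to 6.82), with ratios to the control of 1.05 (0.686 to 1.64) and 1.19 (0.802 to 1.78). These ranges span 1 and reach above 1.5, so moderate differences would not have been seen.

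Nedd4, a HECT-domain ligase of membrane proteins, was the most abundant of the 10 in every library. It stood at 299 FPKM (244 to 353) in the starved, 219 FPKM (180.4 to 257) in the knockdown and 225 FPKM (187 to 262) in the control library, with all intervals overlapping. The starved to control ratio was 1.33 (0.930 to 1.88) and the knockdown to control ratio 0.973 (0.688 to 1.37). Nedd4 made up 77.4%, 77.0% and 86.1% of the summed FPKM of the 7 ligase genes, and its level was 6.53 times that of Fbxo32 in the starved, 7.56 times in the knockdown and 26.2 times in the control library.

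**Figure D3:**
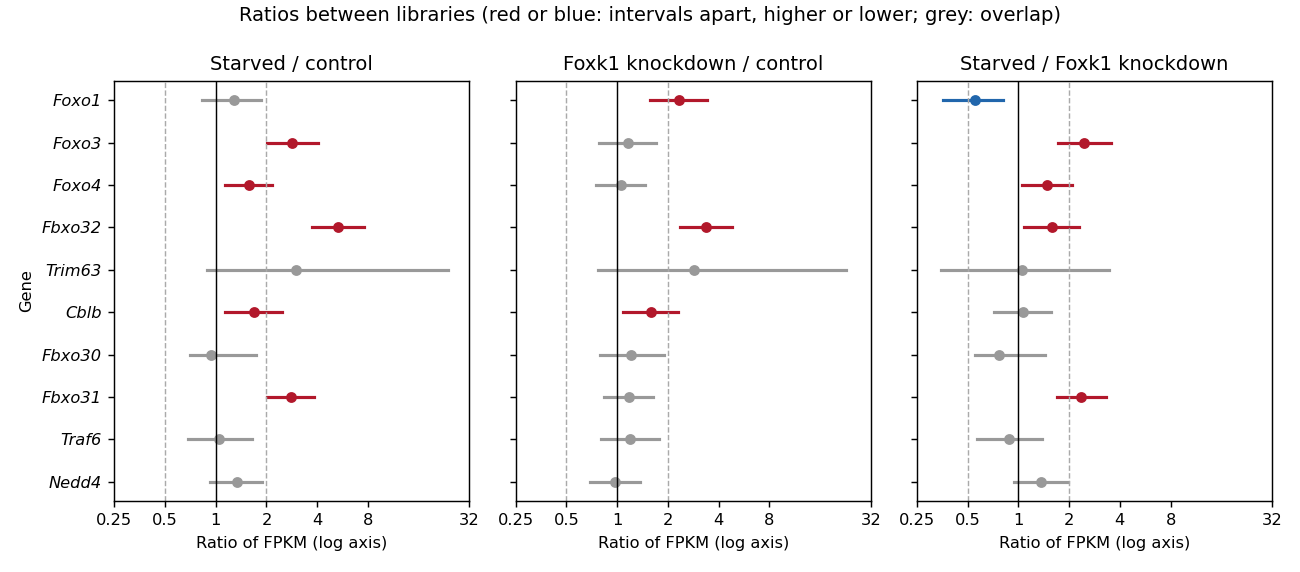
Ratio of FPKM (log axis) of the 10 genes for the starved library over the control, the Foxk1 knockdown over the control and the starved over the knockdown library. Points are ratios, lines run from the lowest to the highest ratio the authors' 95% limits allow, and dashed lines mark a ratio of 2 or its inverse. Red and blue mark intervals that are apart. Foxo1 is the only gene in blue, at 0.552 in the starved over the knockdown library.

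Counted together, 5 of the 9 genes above the minimum were higher with intervals apart in the starved than in the control library and none was lower. Over all 11396 rows 12.2% were higher and 10.9% lower by that measure. The 5 were Fbxo32, Foxo3, Fbxo31, Cblb and Foxo4, and the first 3 of them were also at least 2-fold higher on the log2 scale, as were 3.12% of all rows, with 3.0% at least 2-fold lower. The median log2 fold change of the 9 genes was 0.58, against -0.01 over all rows. Against the same control, the knockdown library had 3 of the 9 higher apart (Fbxo32, Foxo1 and Cblb) and none lower, beside 8.89% and 7.13% of 11357 rows. Of these, Fbxo32 and Foxo1 reached 2-fold, which 2.61% of all rows did upward and 1.45% downward, and the median of the 9 was 0.21 against 0.02. The comparisons share the control library, so a low control value of a gene raises both of its fold changes. The members were chosen with earlier results of these data known, so their counts and medians, here and below, are not a test against all rows.

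The direct comparison of the starved with the knockdown library does not use the control. In it Foxo3, Fbxo31, Fbxo32 and Foxo4 were higher apart and Foxo1 was lower apart, while Cblb, Fbxo30, Traf6 and Nedd4 overlapped. Over all 11478 rows 13.3% were higher and 13.7% lower by the same measure. Foxo3 (log2 fold change 1.20) and Fbxo31 (1.11) were at least 2-fold higher, as were 4.03% of all rows, and no member was 2-fold lower, where 5.3% of all rows were. The median of the 9 genes was 0.45, against -0.02 over all rows.

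Genes with a like pair of log2 fold changes against the control were searched among 9100 single-gene rows that reached 5 FPKM in some library, by Euclidean distance over the starved and knockdown values. Nearest to Foxo1 (0.31 and 1.09) were Plcb4, Sdc2, Lgr4, Ptn and Ctxn1, at distances from 0.0516 to 0.0847. Nearest to Foxo3 (1.39 and 0.18) were Zfp395, Frat2, Apobec1, Chchd10 and, in the fifth place, Fbxo31 (1.30 and 0.19), at distances from 0.0266 to 0.0851. Fbxo32 (2.29 and 1.65) had no such close neighbours, the nearest being Maf (2.40 and 1.24), Herpud1, Ndrg1, Ypel3 and Klhl24 at distances from 0.420 to 0.617. The pairs rest on 3 libraries and 1 shared control, and with a pseudocount of 5 FPKM 3, 1 and 2 of the 5 nearest genes of Foxo1, Foxo3 and Fbxo32 were the same.

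Known FoxO target genes had the most members higher apart of the 7 pathway lists in each comparison. Of 30 members above the minimum, 21 were higher and 2 lower apart in the starved library, 11 higher and 1 lower in the Foxk1 knockdown, and 14 higher and 3 lower in the starved against the knockdown library. As shares these are 70.0%, 36.7% and 46.7% higher, beside 12.2%, 8.89% and 13.3% of all rows, and 6.67%, 3.33% and 10.0% lower, beside 10.9%, 7.13% and 13.7%. The list medians were 0.87, 0.38 and 0.47 on the log2 scale, against -0.01, 0.02 and -0.02 over all rows, and this list was chosen with such results known. The stress gene Gadd45a stood at 149 FPKM in the starved, 27.3 FPKM in the knockdown and 16.5 FPKM in the control library. Txnip, which encodes a thioredoxin-binding arrestin, stood at 87.6, 19.3 and 12.5 FPKM. The cell-cycle inhibitor gene Cdkn1b (p27) was 3.94 times as high in the starved as in the knockdown library. Of the listed genes at 5 FPKM or more in either library, Ypel3, Hbp1 and Sesn3 had the largest log2 fold changes of the knockdown library against the control. Their plain ratios of FPKM were 2.27, 2.20 and 1.91. Ctgf, a growth factor gene also listed here, went the other way between the treatments, at 9.46 FPKM in the starved, 261 FPKM in the knockdown and 154 FPKM in the control library.

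**Figure D4:**
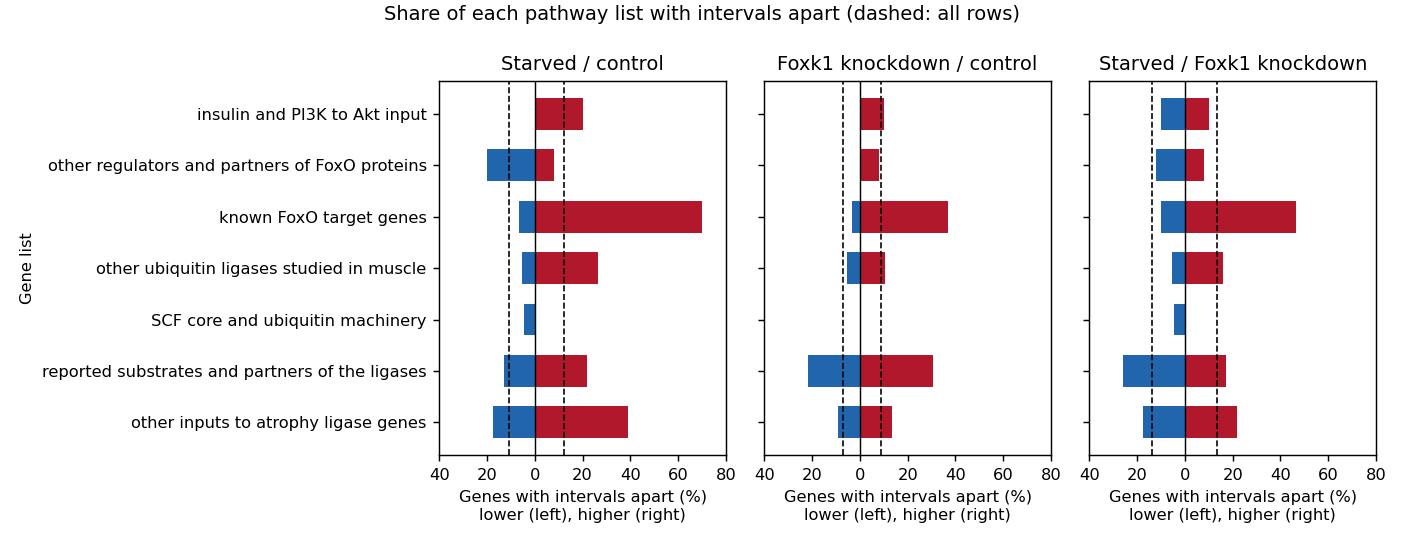
Share of the tested members of 7 pathway lists with intervals apart, higher to the right in red and lower to the left in blue, for the starved over the control, the knockdown over the control and the starved over the knockdown library. Dashed lines give the share over all rows. Known FoxO targets reach 70.0%, 36.7% and 46.7% on the higher side, and the SCF and ubiquitin machinery stays at 0% there.

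Upstream of FoxO, the insulin and PI3K to Akt list had 4 of 20 members higher and none lower apart in the starved library, with a median log2 fold change of -0.0024 (0.11 in the knockdown library). Its 20.0% higher and 0% lower stand beside 12.2% and 10.9% of all rows. The 4 included Irs2 (7.53 FPKM in the starved and 3.17 FPKM in the control library), Insr (10.2 and 4.82 FPKM) and Pik3ca (18.7 and 12.2 FPKM), which encode an adaptor, the insulin receptor and a catalytic subunit of PI3K. Irs2 and Insr also stand in the FoxO target list. The knockdown library had 2 of 20 higher apart, the adaptor subunit gene Pik3r1 (24.6 FPKM, against 12.3 FPKM in the control) and Irs2 (5.39 FPKM), a share of 10.0% near the 8.89% of all rows. The intervals of Pik3cb, another catalytic subunit gene, overlapped between the knockdown (4.41 FPKM) and control (6.37 FPKM) libraries.

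Other regulators and partners of FoxO proteins had 2 of 25 members higher and 5 lower apart in the starved library, with a median of -0.16, against 0.03 in the knockdown library. Its 8.0% higher was below the 12.2% of all rows, and its 20.0% lower stands beside 10.9%. Skp2, an F-box protein known to mark FOXO1 for breakdown, stood at 7.65 FPKM in the starved and 14.9 FPKM in the control library. The 14-3-3 gene Ywhah was at 127 and 226 FPKM, the arginine methyltransferase gene Prmt6 at 3.81 and 7.01 FPKM, and Smad3, a partner of FoxO, at 26.7 and 14.2 FPKM. In the knockdown library Smad3 (21.0 FPKM) and Prmt6 (10.5 FPKM) were higher apart, 8.0% against 8.89% of all rows, and none of 25 was lower. In the starved against the knockdown library 2 of 25 were higher and 3 lower apart. Both shares were below those of all rows, 13.3% and 13.7%. Sirt1, which encodes a deacetylase of FoxO proteins, was higher apart, at 1.83 times the knockdown level. The 3 lower apart were Prmt6 at 0.364 times and the 14-3-3 genes Ywhab and Ywhag at 0.588 and 0.632 times. Of the list, only Prmt6 reached 2-fold on the log2 scale there.

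Other ubiquitin ligases studied in muscle had no member at 2-fold on the log2 scale with its pseudocount in any of the 3 comparisons, and medians of 0.02 (starved over control) and 0.16 (knockdown over control). In the starved library 5 of 19 were higher apart, among them Siah1a, which has the near-identical copy Siah1b (1.90 times the control), Ubr2 (1.83 times) and Ube4b (1.51 times), and Skp2 was lower. The 26.3% higher and 5.26% lower stand beside 12.2% and 10.9% of all rows. The knockdown library had 2 of 19 higher apart, 10.5% against 8.89% of all rows: the Cbl-b relative Cbl (11.2 FPKM, against 6.55 FPKM in the control) and Trim55, a MuRF relative (12.7 FPKM, against 7.89 FPKM). It had 1 of 19 lower apart, 5.26% against 7.13% of all rows. In the starved against the knockdown library 3 of 19 were higher and 1 lower apart, 15.8% and 5.26% beside 13.3% and 13.7% of all rows. Nedd4l, a relative of Nedd4, was higher apart, at 11.2 FPKM in the starved and 5.45 FPKM in the knockdown library. Cbl was lower apart, at 5.38 FPKM in the starved and 11.2 FPKM in the knockdown library. Their plain ratios of FPKM were 2.06 and 0.481. The shared machinery of SCF core, E1 and E2 enzymes and ubiquitin had medians of -0.14 and 0.00 in the same comparisons. Of its 22 genes, none was higher apart in any of the 3 comparisons, beside 12.2%, 8.89% and 13.3% of all rows. Ube2n, which makes K63-linked chains, was the only one lower apart. It stood at 43.6 FPKM in the starved, 65.0 FPKM in the knockdown and 65.7 FPKM in the control library. Lower apart in the starved library against the control and the knockdown, it was 4.55% of the list, beside 10.9% and 13.7% of all rows. The starved values of Ube2n and Siah1a (25.6 FPKM) lay above their own upper limits of 43.0 and 25.4 FPKM.

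Among reported substrates and partners of the ligases, 5 of 23 were higher and 3 lower apart in the starved library, and 7 higher and 5 lower apart in the knockdown library, with medians of 0.02 and 0.14. The shares were 21.7% higher and 13.0% lower in the starved library, beside 12.2% and 10.9% of all rows, and 30.4% and 21.7% in the knockdown library, beside 8.89% and 7.13%. Myod1, whose protein atrogin-1 is known to bind, was at 0.152 times the control in the starved library. Ccnd1, the cyclin D1 gene, was lower apart in both, at 47.4 FPKM in the starved, 62.0 FPKM in the knockdown and 192 FPKM in the control library. The myosin light chain genes Myl1 and Mylpf were at 4.45 and 4.06 times the control in the knockdown library. Markers of differentiated muscle were high together with Foxo1 and Fbxo32 in that library. All 5 were higher apart in the knockdown library, with Myog at 45.4 FPKM there, against 6.02 FPKM in the starved and 14.2 FPKM in the control library, and their part in the levels of Foxo1 and Fbxo32 was not tested.

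Other known inputs to atrophy ligase genes had 9 of 23 members higher and 4 lower apart in the starved library, and 3 higher and 2 lower of 22 in the knockdown library, with medians of 0.34 and 0.07. The starved shares of 39.1% higher and 17.4% lower stand beside 12.2% and 10.9% of all rows, and the knockdown shares of 13.6% and 9.09% beside 8.89% and 7.13%. One of the genes lower in the knockdown library was Foxk1, the target of the siRNA. Cebpb, a transcription factor gene tied to muscle wasting in mice, stood at 110 FPKM in the starved and 46.2 FPKM in the control library. Tnfrsf12a, the receptor of the cytokine TWEAK, was lower apart in both, at 80.6 FPKM in the starved, 171 FPKM in the knockdown and 377 FPKM in the control library. Stat3 was 1.65 times the control in the knockdown library, with intervals apart.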

How the data were processed

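The deposited tables of 3 polyA RNA-seq libraries give, per the file headers, the mean FPKM of each gene symbol with 95% limits. Build mm9 and the tools Cufflinks 2.1.1, Cuffdiff, Bowtie2 2.1.0 and TopHat2 2.0.9 are named in the submitters' processing notes. Not given in the sources used here are the annotation, the interval method and any pooling of replicates. Such upstream choices could shift reads between similar genes, and could narrow or widen the intervals that decide which genes are apart.

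Groups came from the sample titles. Zzz3 was left out since the knockdown table gives its limits in reverse, and 22988 rows remained. In the starved, knockdown and control libraries 11171, 11138 and 11100 of them reached 1 FPKM, and the mean lay above its own upper limit in 340, 289 and 353. FPKM holds no counts: of 2135 rows under 0.1 FPKM, at most 8.01% of library ratios fell within 1% of whole-read steps, so no depth was recovered and no count test was made.

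Rows at 1 FPKM or more in either library entered a comparison. Log2 fold changes used a pseudocount of 1 FPKM. Members and gene lists were chosen with earlier results of these data known. Named are the 10 members, Foxk1, up to 4 genes per list and comparison with the largest fold change at 5 FPKM or more, marker genes, and the 5 nearest genes in pattern of Foxo1, Foxo3 and Fbxo32. Some genes that this rule names are not reported here. Foxo6 was added as an alternative. The ChIP regions, in mm9 without an annotation here, were not used. Alternatives covered the pseudocount, filter, scaling, threshold and rows with values outside their limits. Scripts were tested on simulated data. Computations used matplotlib 3.10.9, pandas 2.3.3, numpy 2.4.6 and Python 3.11.15.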

Additional observations from a re-analysis of the deposited data

How the results depend on the processing

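The counts of members with intervals apart, 5 higher in the starved and 3 higher in the knockdown library against the control, and 4 higher and 1 lower in the starved against the knockdown library, were the same without a filter, with a filter of 5 FPKM, after scaling to a median fold change of 0, and without rows whose mean lay outside its interval. Counts at 2-fold depended on the pseudocount and the threshold. With a pseudocount of 5 FPKM, 2 members in place of 3 were 2-fold higher in the starved and 1 in place of 2 in the knockdown library against the control. In the starved against the knockdown library 0 in place of 2 were 2-fold higher. At a threshold of 1.5-fold, these counts of higher members were 4, 3 and 3. At that threshold 1 member in place of 0 was lower in the starved than in the knockdown library, namely Foxo1. The FoxO sums and shares stayed within the ranges from the limits when Foxo6 was included, but the ranges of the knockdown sum (26.6 to 39.4 FPKM) and the control sum (18.7 to 26.8 FPKM) then overlapped, which they did not without it. No log2 fold change of a called member changed sign under another pseudocount or scaling. The log2 fold changes of Trim63 were 0.99 and 0.94 in the starved and knockdown libraries with a pseudocount of 0.1 FPKM, against 0.23 and 0.22. Over all rows, the counts at 2-fold moved by more than 1.5 times with a pseudocount of 5 FPKM or a threshold of 1.5-fold. With a pseudocount of 0.1 FPKM only some of them did. In the starved library against the control, 562 rows with a pseudocount of 0.1 and 154 with 5 were higher in place of 356. The count of lower rows there was 472 with a pseudocount of 0.1 in place of 342, a smaller move. No paired analysis was possible because each group has 1 library and the labels give no replicate numbers, and no library could be left out for the same reason. Without read counts, a limit of detection for Trim63 could not be computed.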
